A study of Mus musculus with 40 samples.

Results

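The transcripts described here encode the initiation and elongation factors of translation in mouse cortex, taken as every row of the deposited transcript table whose mm10 RefSeq symbol starts with Eif or Eef. There were 53 such rows of 6831 transcripts, from 47 genes of 5873 symbols, and they held 0.963% of all normalised counts. RNA came from the dissected cortex of male C57BL/6 mice aged 12 weeks, a strain that the study's methods give as C57Bl/6J. Each mouse was injected daily with saline or with memantine, which blocks the channel of NMDA receptors, 1 h before high-frequency head impact (HF-HI) or a sham procedure, and tissue was taken 24 h after injury. The study's methods give the sham mice the same handling and isoflurane anaesthesia as the impact mice, so all 4 groups shared anaesthesia and injections. The groups were 2 sham groups and 2 HF-HI groups, 1 of each under saline and 1 under memantine, with 10 libraries in each, and the labels give no cage, cohort or sequencing batch.

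Translation begins when eIF2, loaded with GTP and the initiator tRNA, joins the small ribosomal subunit together with eIF1, eIF1A, eIF3 and eIF5. The complex is brought to the mRNA cap by eIF4F, made of the cap-binding protein eIF4E, the scaffold eIF4G and the RNA helicase eIF4A, which eIF4B and eIF4H stimulate. Elongation then uses eEF1A to deliver charged tRNAs and eEF2 to move the ribosome, and in neurons both steps are known targets of synaptic signalling through mTORC1 and the kinases of eIF2 and eEF2. The 47 genes fell into 9 fixed classes, named after the main factors in each. There were 6 rows of scanning and start codon factors, 6 of eIF2 and eIF2B, 3 of eIF2 kinases and 13 of eIF3. Another 15 were of eIF4F and its helpers and 1 of eIF4E-binding proteins. The rest were 2 of eIF5A and eIF6, 5 of the eEF1 complex and 2 of eEF2 and its regulators. The class of eIF2 and eIF2B also holds Eif2a, and that of eIF4F and its helpers also holds Eif4a3.

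Recovered reads ran from 13322404 to 17529644 per library. All 9 listed genes of cortical excitatory neurons were in the table, and their summed normalised counts ran from 39724 to 67224 over the 40 libraries. Of 13 listed striatal markers, 9 were in the table with 13 rows. Drd1 was among them, while Drd2, Adora2a and Tac1 were not. The summed striatal markers had medians of 39083 normalised counts under saline sham (27459 to 45749) and 32517 under saline HF-HI (27568 to 39326). They were 39096 under memantine sham (30030 to 46675) and 37193 under memantine HF-HI (25128 to 41565). Between the saline groups, 7 of the 13 rows were lower after impact at p < 0.05, where 4.95% of all transcripts were lower, and none was higher. Under memantine none of the 13 passed between HF-HI and sham, where 4.61% of all transcripts did. The part of striatal RNA in the results below was not tested directly, but each of the members called between the saline groups is given below also with the striatal marker mean as a covariate, and so are the single rows called between the memantine groups. Because these are bulk samples, fewer cells of a type and less RNA per cell cannot be told apart.

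Per kilobase of transcript, the elongation factors Eef1a1, Eef2 and Eef1a2 were the most abundant of the members, while Eef1b2 and Eef1d ranked below many initiation factors. The rows of Eif4a2, Eif4g2 and Eif4g3 were left out of the ranking. Over the other 45 rows, the median level over the 40 libraries spanned 125-fold. Eef1a1, the widely expressed form of eEF1A, stood first with a median of 16493 normalised counts per kb (15468 to 18427), and its range did not overlap that of the next row. Eef2, the translocase, had 5339 per kb (4883 to 5656) and Eef1a2, the form of eEF1A found in mature neurons and muscle, had 5234 per kb (4796 to 5735), and these neighbours overlapped. Eif4a1, a helicase of eIF4F, had 2240 per kb (1680 to 2488). It overlapped with Eef1g, a subunit of the exchange factor of eEF1A, at 1811 per kb (1684 to 2029). Next among the 45 rows came Eif1, which guards the choice of start codon, with 1227 per kb (940 to 1560). Eif4b followed with 1125 per kb (1039 to 1243). Of the rows left out, Eif4a2 NM_013506 and NM_001123038 had means of 1732 and 1485 per kb, above the mean of 1229 for Eif1. Eif4a2 has 4 rows, and Eif4h was ranked by its 2 separate rows, so this order is of rows and not of whole genes.

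In the other classes the most abundant rows were Eif3k, a non-core subunit of eIF3, with a median of 1027 normalised counts per kb, Eif5a, which helps the ribosome past stalling sequences, with 969 per kb, and Eif2s3x, the X-linked gene for the gamma subunit of eIF2, with 488 per kb. Eif2ak1, the haem-regulated eIF2 kinase, had 211 per kb, and Eif4enif1, which carries eIF4E into the nucleus, had 194 per kb. The lowest of the 45 rows were Eef2k, the kinase that inhibits eEF2, with 155 per kb, and Eif2ak4, the amino acid-sensing eIF2 kinase, with 132 per kb. Of the 44 pairs of neighbours in this order, 4 did not overlap between libraries.

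**Figure D1:**
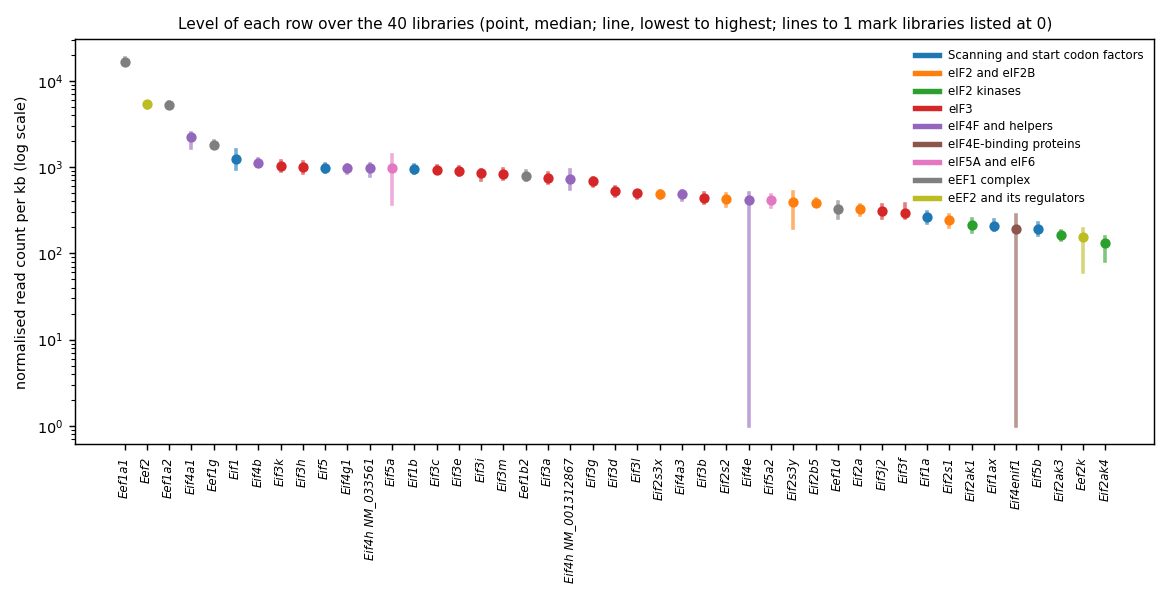
Normalised read count per kb of transcript (log axis) of 45 Eif and Eef rows, without those of Eif4a2, Eif4g2 and Eif4g3, coloured by factor class. Points are medians over the 40 libraries and lines run from the lowest to the highest library. Eef1a1, Eef2 and Eef1a2 lead, and the long lines of Eif4e and Eif4enif1 reach libraries in which these rows are listed at 0, drawn here at 1.

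The first question was whether any member differed among the 4 groups at 24 h. In limma's moderated F-test on the deposited values, 5 of 53 rows passed an unadjusted p of 0.05, against 8.42% of all transcripts. They were Eif4b (p = 0.000282), Eif4g1 (p = 0.00874), Eif4g2 row NM_013507 (p = 0.0122), Eif1ax (p = 0.0313) and Eif2s2 (p = 0.0364), the last a subunit of eIF2. None passed a Benjamini-Hochberg adjusted p of 0.1 over all 6831 transcripts, which 0.102% of transcripts did, and the smallest adjusted p of a member was 0.174. Of these 5 rows, 3 belong to the class of eIF4F and its helpers, which includes Eif4g2 and holds 15 of the 53 rows.

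The saline comparison concerned head impact in mice that had no drug. There, 6 of 53 rows passed p < 0.05, where 9.53% of all transcripts did, and 1 of them, Eif4b, passed the adjusted threshold of 0.1, where 0.205% of all transcripts did. After impact 4 rows were higher (4.58% of all transcripts), Eif4b, Eif4e, Eif1ax and Eif2s3x, and 2 were lower (4.95%), Eif4g1 and Eif4g2 row NM_013507. The median log2 change of the mean normalised count was 0.024 over the 53 rows and -0.00040 over all transcripts, with 32 rows higher and 21 lower. Under memantine, 3 of 53 rows passed p < 0.05 between HF-HI and sham, where 4.61% of all transcripts did, with Eif4b and Eif3m higher (2.39% of all transcripts) and Eif4g1 lower (2.23%). No member passed the adjusted threshold there, with a smallest adjusted p of 0.967 against a background of 0.0146% of all transcripts.

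**Figure D2:**
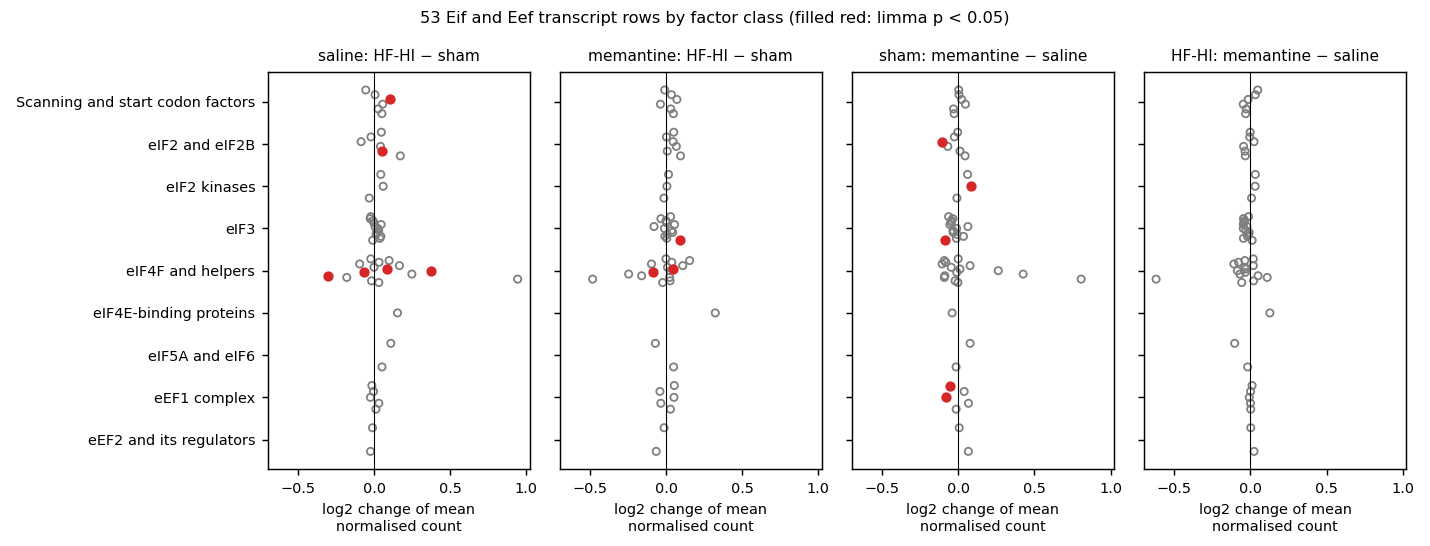
Log2 change of the mean normalised count for each of the 53 rows (points) by factor class in 4 comparisons of 10 against 10 libraries; filled red points passed limma p < 0.05. The called rows sit within 0.4 log2 units of 0, and the widest points, all in eIF4F and helpers, are the minor row of Eif4g3, which did not pass.

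Eif4b, at chr15:102073773-102097173 in mm10, encodes the cofactor that raises the helicase activity of eIF4A. Its normalised count ran from 4007 to 4504 in saline sham with a median of 4202, and from 4261 to 4791 in saline HF-HI with a median of 4481. All 10 saline HF-HI libraries lay above the saline sham mean and 4 lay above every saline sham library, so the groups overlapped only in part. The mean rose from 4210 ± 165 to 4473 ± 149 (SD, n = 10 each), a change of 6.24% and of 0.059 ± 0.014 (SE) on the deposited log2 scale (limma p = 0.000109, adjusted p = 0.0845). A two-sided permutation test of the normalised counts gave p = 0.00157.

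The same row of Eif4b ran from 4005 to 4408 in memantine sham (median 4266) and from 4226 to 4514 in memantine HF-HI (median 4375). Here 9 of 10 impact libraries lay above the sham mean and 2 above every sham library. The mean rose by 3.20%, from 4242 ± 112 to 4378 ± 78.7 (limma p = 0.0303, adjusted p = 0.967), with p = 0.0039 in the permutation test and p = 0.0289 with the striatal covariate. The difference between the 2 impact effects was -0.028 ± 0.019 (SE) on the deposited scale and did not pass (interaction p = 0.151), so the smaller change under memantine was not shown to differ from that under saline.

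In saline, the unadjusted p of Eif4b stayed under 0.05 in all 40 fits that left out 1 library and was 0.000198 with the striatal marker mean as a covariate. Its adjusted p was less stable. It rose to 0.236 with the covariate, and it lay between 0.102 and 0.172 in 17 of the 40 fits. Those were the fits without saline sham replicate 2, 3, 5, 8 or 9, saline HF-HI replicate 3, 4, 5, 6, 7, 8 or 9, memantine sham replicate 2, 3 or 7, or memantine HF-HI replicate 4 or 10. Under memantine the unadjusted call was lost without memantine sham replicate 8 or 10 or memantine HF-HI replicate 1 or 8, with p from 0.0516 to 0.0768.

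Eif4g1, at chr16:20672720-20692883, encodes the main scaffold of eIF4F, and its row was lower after impact in both drug arms. The row is 1 of 2 curated RefSeq transcripts of the gene. A shift between transcripts and a change of the whole gene therefore cannot be told apart. In saline sham it ran from 5144 to 5711 normalised counts with a median of 5515, and in saline HF-HI from 4754 to 5798 with a median of 5199. The saline HF-HI libraries spread on both sides of the sham range, with 8 of 10 below the sham mean, 4 below every sham library and 1 above them all. The mean fell from 5468 ± 202 to 5227 ± 304, a change of -4.40% (limma p = 0.043, adjusted p = 0.508). This saline call was fragile, since it was lost with the striatal covariate (p = 0.128), in the permutation test (p = 0.0523) and in 12 of the 40 fits that left out 1 library (p from 0.0501 to 0.107). Those were the fits without saline sham replicate 1, 2, 3, 5, 6 or 10 or saline HF-HI replicate 1, 3, 6, 7, 9 or 10.

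Between the memantine groups, Eif4g1 ran from 5138 to 5700 in sham (median 5467) and from 4687 to 5556 in HF-HI (median 5023). With 9 of 10 HF-HI libraries below the sham mean and 6 below every sham library, the separation was wider than in saline. The mean fell from 5428 ± 196 to 5105 ± 305, a change of -5.95% (limma p = 0.0073, adjusted p = 0.967). This call held in all 40 fits without 1 library, with p = 0.0131 in the permutation test and p = 0.0109 with the striatal covariate. The impact effects of the 2 arms did not differ in the test of the difference (interaction p = 0.603).

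Eif4g2, at chr7:111067985-111083030, encodes DAP5, a relative of eIF4G that lacks the eIF4E-binding region and serves initiation away from the cap. It had 2 rows. By the matched GENCODE transcripts the rows share 20 coding segments, and NM_013507 alone carries coding exon 14 of 22, of 114 bases or 38 codons. The models are 7995 bases long for NM_013507 and 3548 for NM_001040131, so they also differ outside this exon. The sequence of this exon is shown because it is the coding stretch by which reads can be told to belong to the row that was called. It is read on the minus strand of mm10 at chr7:111076280-111076393, from GENCODE, 5′ to 3′ and with no part in capitals.
Eif4g2 exon 14: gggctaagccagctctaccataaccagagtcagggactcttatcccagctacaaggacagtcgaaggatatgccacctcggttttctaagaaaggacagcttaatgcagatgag

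The row with this exon took 91.1% ± 4.56 of the counts of Eif4g2 in saline sham and 87.4% ± 5.46 in saline HF-HI, a difference in share that did not pass (permutation p = 0.115). NM_013507 itself ran from 6569 to 9510 normalised counts in saline sham (median 8861) and from 5746 to 10027 in saline HF-HI (median 6424). Of the saline HF-HI libraries, 7 lay below every saline sham library, 9 lay below the sham mean, and replicate 7 lay above all sham libraries. The mean fell from 8320 ± 1115 to 6754 ± 1232, a change of -18.8% (limma p = 0.00342, permutation p = 0.00968), and the call held in all 40 fits without 1 library and with the striatal covariate (p = 0.00244). The adjusted p was 0.279.

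With both rows of Eif4g2 summed, the count did not depend on how reads were split between them. The sum ran from 7575 to 10289 in saline sham (median 9592) and from 6807 to 10253 in saline HF-HI (median 7493). All saline HF-HI libraries but replicate 7 lay below the saline sham mean, and replicate 7 was near the top of the sham range. The mean sum fell from 9112 ± 974 to 7695 ± 972, by -15.6% (limma on summed rows, p = 0.00368, adjusted p = 0.213, permutation p = 0.00496).

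Under memantine the summed Eif4g2 count ran from 7203 to 11060 in sham (median 8834) and from 7321 to 10316 in HF-HI (median 7528). Again 9 of 10 HF-HI libraries lay below the sham mean, and replicate 5 stood far above them, while the sham libraries spread over the whole range. The mean was 8887 ± 1479 in sham and 7888 ± 888 in HF-HI, a change of -11.2% that passed in limma (p = 0.0462) and not in the permutation test (p = 0.0884). For the single row NM_013507 the memantine comparison did not pass (limma p = 0.114). Counted over genes with rows summed, 6 of 47 members passed p < 0.05 in saline, where 10.7% of all genes did, and 4 of 47 under memantine, where 4.46% did, with Eif4g2 the gene added by summing. For memantine against saline the sums gave 5 of 47 in sham mice, where 7.85% of all genes passed, and 0 of 47 after HF-HI, where 3.54% did.

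**Figure D3:**
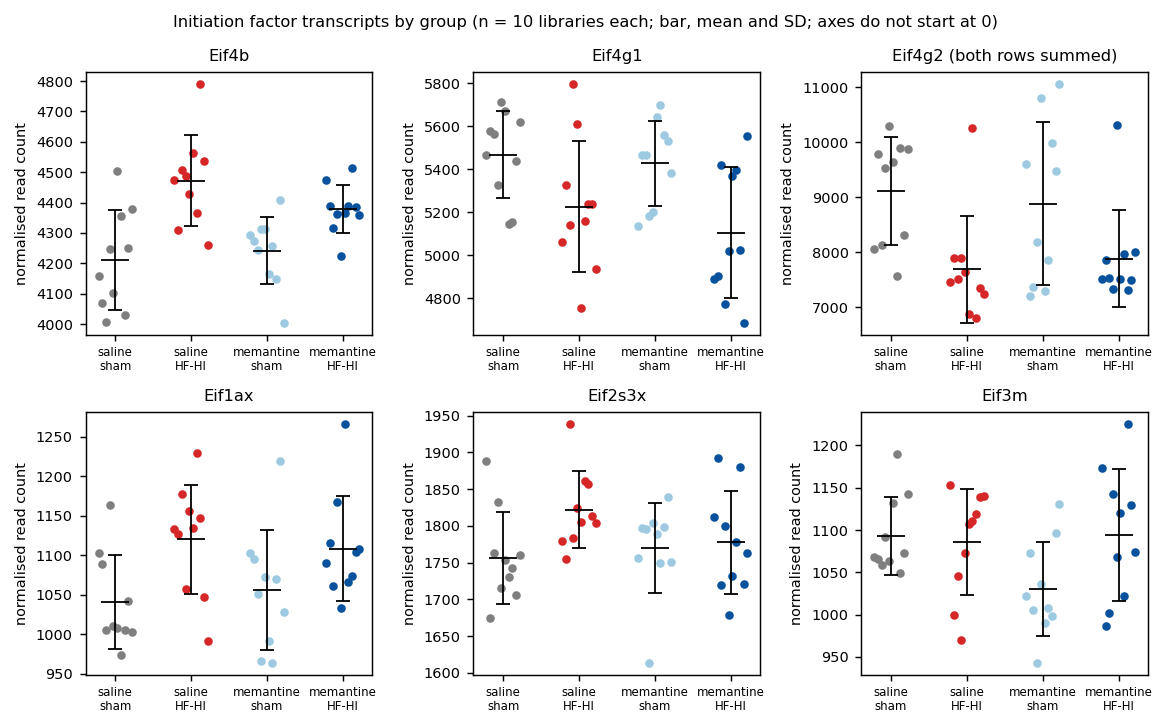
Normalised read count (vertical axes, not from 0) of 6 initiation factor genes in each library of the 4 groups; points are libraries and bars give the mean and SD (n = 10). Eif4b sits higher and Eif4g1 lower after HF-HI in both drug arms, and in each HF-HI group of Eif4g2 9 libraries form a low band with 1 library near 10253 or 10316.

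Eif4e, at chr3:138526191-138559696, encodes the cap-binding subunit. Its row, 1 of 2 curated RefSeq transcripts of the gene, was listed at 0 in saline sham replicates 7 and 8 and ran from 1605 to 2496 normalised counts in the other 38 libraries. Whether these 0 values are true absences or failed estimates of the read counter was not tested, and the same holds for the other rows listed at 0. The other 8 saline sham libraries ran from 1920 to 2299, and the saline HF-HI libraries from 1914 to 2496 with a median of 2177. Apart from the pair at 0, the saline groups overlapped, with 2 saline HF-HI libraries above every saline sham library. The limma call (p = 0.0259, and p = 0.0173 with the striatal covariate) was lost in the permutation test (p = 0.0756), without either of the replicates 7 and 8 (p = 0.0896 each) and without both (p = 0.315).

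Eif4a2, the helicase form that predominates in brain over Eif4a1, had 4 rows. Its summed count ran from 9469 to 11522 under saline sham (median 10489) and from 9877 to 11993 under saline HF-HI (median 11073). Under memantine it ran from 9387 to 11155 in sham (median 10347) and from 9750 to 11654 in HF-HI (median 10673). The sum was thus steady, with a coefficient of variation (CV) from 4.74% to 6.31% within groups, while the rows were not. Row NM_013506 was at 9259 in memantine sham replicate 8 and at 9524 in memantine HF-HI replicate 10, against at most 5053 and 4727 in the rest of those groups, and the other 3 rows were at their lowest in the same 2 libraries. The ratio of Eif4a2 to Eif4a1 was 2.65 ± 0.116 in saline sham and 2.83 ± 0.297 in saline HF-HI, and 2.59 ± 0.0676 and 2.69 ± 0.123 in the matching memantine groups. The rows are 4 of 6 curated RefSeq transcripts of Eif4a2 and 1 of 2 of Eif4a1, so the ratio covers parts of both genes. Of 12 comparisons of paralogue ratios, the memantine HF-HI to memantine sham difference of this ratio had the smallest p (permutation p = 0.0304) and did not pass after adjustment over the 12 (adjusted p = 0.217).

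Eif4g3, another form of the eIF4G scaffold, had 2 rows that also exchanged counts. They are 2 of 8 curated RefSeq transcripts, so their sum and its ratio to Eif4g1 cover only part of the gene. NM_001256195 was listed at 0 in saline HF-HI replicate 10 and memantine sham replicate 8 and was at 488 in memantine HF-HI replicate 2, against 3287 to 5501 in the other 37 libraries. Its partner NM_172703 reached 2210, 2070 and 1916 in exactly those 3 libraries, its highest values of the series, but the sum of both rows stayed lower there, at 2210, 2070 and 2404, than in the other libraries. Neither row passed in any comparison, and no comparison of the ratio of Eif4g3 to Eif4g1 passed (adjusted p from 0.978 to 0.992 in 4 comparisons).

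Eif4h, the second cofactor of eIF4A, had 2 rows, with GENCODE models of 2726 bases for NM_033561 and 2367 bases for NM_001312867. Their coding parts differ by 1 exon of 60 bases, exon 5 of 7 of NM_033561, and the models also differ outside it. This exon is shown because, like the Eif4g2 exon, it is a coding stretch that tells the 2 rows apart. It is read on the minus strand of mm10 at chr5:134624441-134624500, from GENCODE, 5′ to 3′ and with no part in capitals.
Eif4h exon 5: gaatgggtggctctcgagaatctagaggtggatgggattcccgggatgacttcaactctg

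The row with this exon held 60.6% ± 4.75 of the Eif4h counts in saline sham and 61.4% ± 3.71 in saline HF-HI, and 60.8% ± 3.50 and 60.0% ± 4.03 in the matching memantine groups. No comparison of these shares passed (permutation p from 0.443 to 0.894), and over the 28 comparisons of shares in Eif4a2, Eif4g2, Eif4g3 and Eif4h the smallest adjusted p was 0.948.

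**Figure D4:**
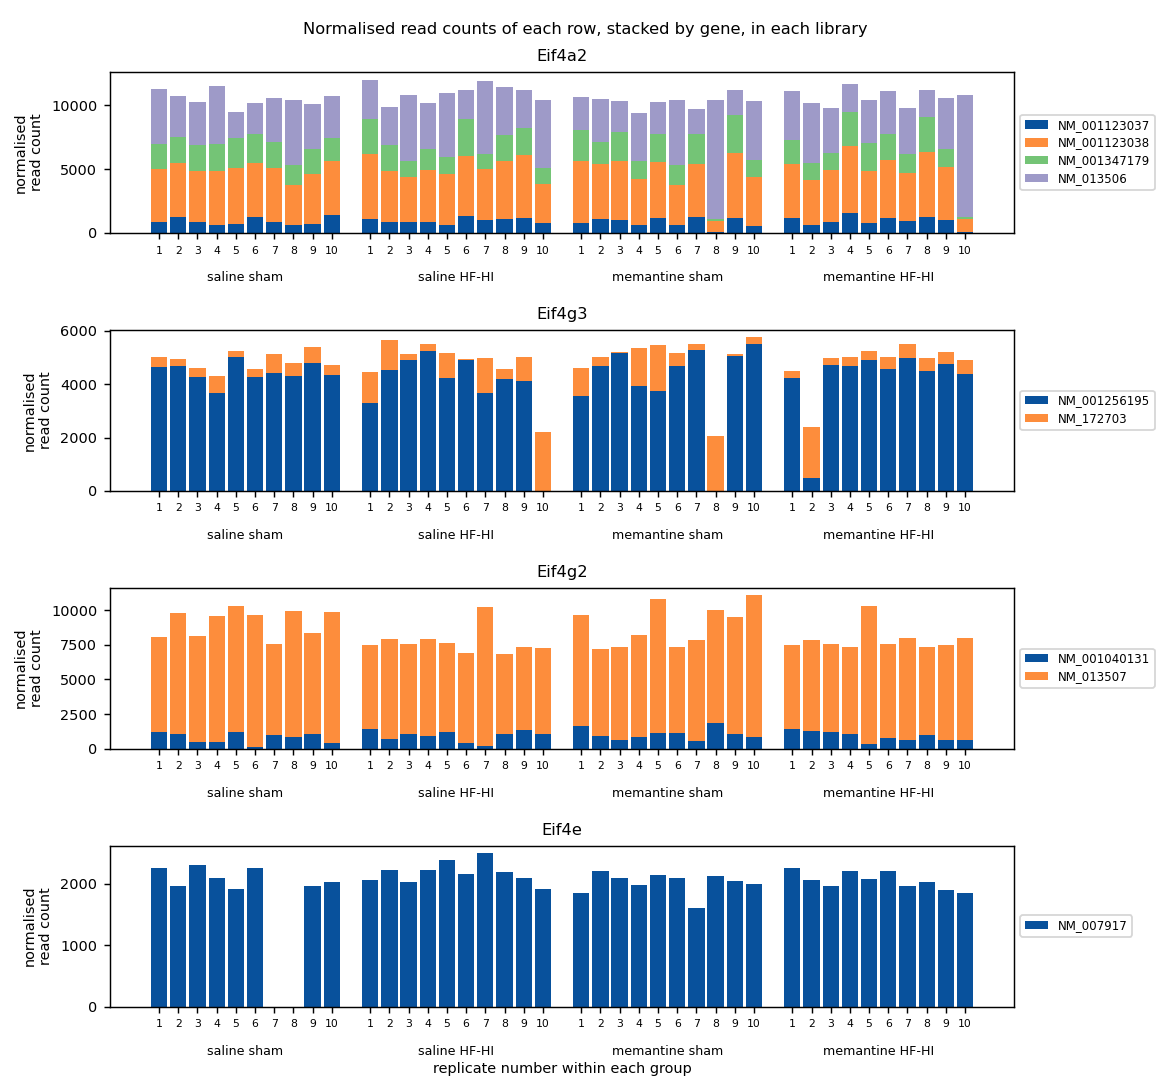
Normalised read count of each transcript row (stacked colours) of Eif4a2, Eif4g3, Eif4g2 and Eif4e in each of the 40 libraries, by group and replicate number. In Eif4a2 the sum stays level while rows exchange counts in memantine sham replicate 8 and memantine HF-HI replicate 10, in Eif4g3 the major row is missing or low in 3 libraries, and Eif4e is listed at 0 in saline sham replicates 7 and 8.

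Members differed widely in their spread between libraries. The 43 rows from genes with a single row had a median CV within groups of 6.18%, the 10 rows from genes with several rows had 32.8%, and all transcripts of the table had 7.92%. Counting error alone gives a CV of at most 4.27%, reached where mean counts were lowest. Among genes with a single row, the widest were Eif4enif1 (68.4%), which was listed at 0 in 6 libraries spread over 3 groups, Eif5a (41.8%), which ran from 502 to 1835 normalised counts and has 9 curated RefSeq transcripts, Eif4e (23.7%) with its pair of libraries at 0, and Eif2s3y (18.6%), the Y-linked gene for the gamma subunit of eIF2. Eif2s3x, which encodes the same subunit, had a CV of 3.47%. Whether reads were shared between Eif2s3x and Eif2s3y was not tested.

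Among the scanning factors, 1 of 6 rows passed in saline, where 9.53% of all transcripts did. Eif1ax, at chrX:159372178-159389621, encodes eIF1A, which helps the ribosome scan to the start codon. It ran from 974 to 1164 normalised counts in saline sham (median 1009) and from 992 to 1229 in saline HF-HI (median 1134). The groups overlapped, but 9 of 10 saline HF-HI libraries lay above the sham mean, with 2 above every sham library. The mean rose from 1040 ± 59.6 to 1120 ± 69.4, by 7.66% (limma p = 0.0129, permutation p = 0.0156), in all 40 fits without 1 library, and p was 0.0536 with the striatal covariate. Between the memantine groups, with means of 1056 and 1108, it did not pass (p = 0.0913, interaction p = 0.538). The related row of Eif1a stayed level in saline, with means of 745 in sham and 748 in HF-HI (limma p = 0.882). Eif1, Eif1a, Eif1b, Eif5 and Eif5b did not pass in any comparison.

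Of the 6 rows of eIF2 and eIF2B, Eif2s3x, at chrX:94188709-94212651, was higher in saline HF-HI. It ran from 1674 to 1888 normalised counts in saline sham (median 1748) and from 1754 to 1939 in saline HF-HI (median 1809). Of the saline HF-HI libraries, 9 lay above the sham mean but only 1 above every sham library. The mean rose from 1757 ± 62.4 to 1822 ± 52.6, by 3.72% (limma p = 0.0299, permutation p = 0.0208). The call was lost with the striatal covariate (p = 0.228) and without saline sham replicate 2 or 9 or saline HF-HI replicate 3 (p from 0.053 to 0.0748). Under memantine the means were 1769 and 1777 (p = 0.785, interaction p = 0.169).

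The drug comparisons asked what memantine changed without and with impact. In memantine sham against saline sham, 5 of 53 rows passed p < 0.05, where 7.51% of all transcripts did, with 1 higher (3.67% of all transcripts) and 4 lower (3.84%). None passed the adjusted threshold of 0.1 (smallest adjusted p of a member 0.634, background 0.0293%). After HF-HI, limma called none of the 53 rows between the drugs at p < 0.05, where 3.91% of all transcripts were called, and the count was 0 also with voom weights and with library weights. The share of all transcripts past the adjusted threshold there was 0%. The 2 drug comparisons and the 2 impact comparisons share groups, so their values are not independent of each other.

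Eif2s1, the alpha subunit of eIF2 that the stress kinases phosphorylate, ran from 782 to 935 normalised counts in saline sham (median 859) and from 691 to 861 in memantine sham (median 800). With 9 of 10 memantine libraries below the saline mean and 3 below every saline library, the groups overlapped. The mean fell from 860 ± 56.4 to 798 ± 48.6, by -7.19% (limma p = 0.0273, permutation p = 0.0165). The call was lost without replicate 1 or 2 of saline sham or, in memantine sham, replicate 4 (p from 0.0545 to 0.0713). In the HF-HI groups the means were 810 under saline and 824 under memantine (p = 0.617), and the interaction did not pass (p = 0.055).

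Eif2ak3, the eIF2 kinase PERK of the endoplasmic reticulum, was the member that rose with memantine in sham mice. Its row, 1 of 2 curated RefSeq transcripts of the gene, ran from 652 to 749 normalised counts in saline sham (median 692). In memantine sham it ran from 665 to 788 (median 738). The groups overlapped, with 8 of 10 memantine libraries above the saline mean and 4 above every saline library. The mean rose from 698 ± 35.8 to 741 ± 39.2, by 6.10% (limma p = 0.0247, permutation p = 0.0228), and the call was lost without replicate 5 of saline sham or, in memantine sham, replicate 6 (p = 0.0515 and 0.0517). The other kinases, Eif2ak1 and Eif2ak4, passed in no comparison.

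In eIF3, the large complex that holds the small subunit and the mRNA together, 1 of 13 rows was called in any comparison. Single comparisons called between 3.73% and 9.53% of all transcripts, and the share called in at least 1 of them was not counted. Eif3m, a non-core subunit, ran from 1049 to 1190 normalised counts in saline sham (median 1071) and from 943 to 1130 in memantine sham (median 1015). Of the memantine sham libraries, 7 lay below every saline sham library. The mean fell from 1093 ± 46.0 to 1030 ± 55.4, by -5.78% (limma p = 0.0272, permutation p = 0.012), and the call was lost without replicate 7 of saline sham or, in memantine sham, replicate 4 (p from 0.0625 to 0.0635).

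Between the memantine groups Eif3m was higher after impact, where it ran from 987 to 1226 with a median of 1097. There 7 of 10 HF-HI libraries lay above the sham mean and 3 above every sham library. The mean rose from 1030 ± 55.4 to 1094 ± 77.5, by 6.21% (limma p = 0.0275, permutation p = 0.0485, p = 0.0148 with the striatal covariate), a call lost without memantine sham replicate 4 or memantine HF-HI replicate 1 or 8 (p from 0.0588 to 0.0751). In the saline groups the means were 1093 and 1086 (p = 0.776), and the interaction did not pass (p = 0.076). The other 12 rows of eIF3 changed by -0.026 to 0.045 log2 units of the mean count in saline and by -0.081 to 0.054 under memantine, and none passed.

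The elongation factors passed in no impact comparison on the deposited values, although Eef1a1 was higher in memantine HF-HI than in memantine sham with the striatal covariate (limma p = 0.0282) and with library weights (p = 0.0411), against p = 0.0685 without them. Eef1a1 ran from 28200 to 32229 normalised counts in saline sham (median 30367) and from 28348 to 32772 in saline HF-HI (median 29946). Under memantine it ran from 27750 to 30391 in sham (median 29404) and from 28216 to 33058 in HF-HI (median 29656). All 4 groups overlapped over most of their range. Memantine sham was lower than saline sham, by -3.89% from 30204 ± 1288 to 29029 ± 1004 (limma p = 0.0461, permutation p = 0.0368). This call was lost after quantile normalisation (p = 0.087) and in 10 of the 40 fits without 1 library (p from 0.0585 to 0.103), namely without replicate 2, 3, 4, 6, 9 or 10 of saline sham or, in memantine sham, replicate 5, 7, 8 or 10.

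Eef1b2, a subunit of the exchange factor that reloads eEF1A with GTP, ran from 1439 to 1668 normalised counts in saline sham (median 1555) and from 1354 to 1627 in memantine sham (median 1445). The groups overlapped, with 5 memantine libraries below every saline library. The mean fell from 1553 ± 65.0 to 1466 ± 92.3, by -5.60% (limma p = 0.0271, permutation p = 0.0279), and the call was lost without replicate 4 or 10 of saline sham or, in memantine sham, replicate 6 or 10 (p from 0.0507 to 0.0602). Eef1a2 stayed between 9994 and 11951 normalised counts in all 40 libraries and Eef2 between 15084 and 17473, and neither passed in any comparison. The ratio of Eef1a2 to Eef1a1 was 0.36 ± 0.025 in saline sham and 0.385 ± 0.0271 in memantine sham, a difference that did not pass (permutation p = 0.0521, adjusted p = 0.217).

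The interaction asked whether impact changed a member differently under memantine. In limma 0 of 53 rows passed p < 0.05, where 3.73% of all transcripts did, and the smallest adjusted p was 0.999. With voom weights 2 rows passed, Eif4e and Eif2s1, and with library weights 4 rows passed, Eef1a1, Eef1b2, Eif2s1 and Eif3m. The share of all transcripts called was not counted with either kind of weight, so these counts have no background. None of the 53 rows had an adjusted p under 0.1 in any of these 3 fits, with a smallest adjusted p of 0.839 under library weights.

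Of the genes that act on these factors, 33 of 56 listed were in the table, with 40 rows. After impact in the saline arm, 3 of the 40 rows were higher, where 4.58% of all transcripts were, and none was lower, where 4.95% were. Among mTORC1 and its targets, 1 of 12 rows passed, Deptor, an inhibitor of mTOR, at 905 ± 84.2 normalised counts in saline sham and 1016 ± 83.8 in saline HF-HI (limma p = 0.00271, adjusted p = 0.25). The partners of eIF4E and of poly(A)-binding protein gave 1 of 13 rows, the helicase gene Ddx3x, at 5924 ± 292 and 6287 ± 321 (p = 0.0292, adjusted p = 0.47). The integrated stress response gave 1 of 5 rows, Atf4, its main transcription factor, at 1307 ± 60.8 and 1374 ± 79.6 (p = 0.045, adjusted p = 0.508).

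Under memantine, Ddx3x was the single row of these lists to pass after impact, where 4.61% of all transcripts did (p = 0.0431, adjusted p = 0.967). With memantine rather than saline after HF-HI, Atf4 was lower, at 1293 ± 52.9 against 1374 ± 79.6 (p = 0.0157), and the 2 rows of Pdcd4, an inhibitor of eIF4A, moved in opposite directions, NM_001168491 upward (p = 0.00228) and NM_001168492 downward (p = 0.0107), with adjusted p of 1.00 for these 3 of 40 rows, where 3.91% of all transcripts passed p < 0.05. In sham mice memantine went with higher Deptor, at 1016 ± 61.6 (p = 0.0026, adjusted p = 0.462). In the same comparison, where 3.67% of all transcripts were higher, 2 more of the 40 rows were higher, Rptor, the mTORC1 subunit that binds its substrates (p = 0.0176), and Gtpbp2, a ribosome rescue factor (p = 0.0379). The 2 rows of mitochondrial translation factors passed in no comparison.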

How the data were processed

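Cortical RNA from 40 mice was sequenced by the authors as stranded, ribosomal RNA-depleted libraries. Per the study's methods, reads were aligned to mm10 with STAR and counted per RefSeq transcript with eXpress, while the submitters' processing notes name HISAT2 and StringTie. The deposited values are DESeq2 variance-stabilised values made by the authors, on a log2 scale with a floor of 10.36. The series text gives 4 samples per group, but 10 per group are labelled.

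The transformation was inverted to normalised counts. All values under 5000 (92.4% of values) were whole multiples of 1 step per library (tolerance 0.1), and size factors ran from 0.859 to 1.14. Each library is taken as 1 mouse, and where that does not hold p-values measure only the spread between libraries. The table held abundant transcripts, with a lowest mean count of 549.2. Symbols came from RefSeq (GRCm38) for 99.7% of rows, lengths and exons from GENCODE vM21 (mm10).

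Deposited values were tested with limma 3.58.1 (R 4.3.3, trend in the variance prior, 1 term per group, all 40 libraries, two-sided), at p < 0.05 and at a Benjamini-Hochberg adjusted p < 0.1 over 6831 transcripts. Single rows, shares and ratios used permutation tests with 100000 resamples. Changes on the deposited scale are compressed at low counts, so changes of mean normalised counts are given beside them. The members, classes and lists were chosen with earlier results of these data known. Named were Eif4b, every member called in limma, the row of each class with the most counts per kb, the paralogue pairs, and the pathway rows with the smallest p per direction. The limma procedure was tested on simulated data. Alternatives were other pseudocounts, voom weights, a mean count of at least 1000, quantile and median scaling, library weights, a replicate block, a striatal covariate, a threshold of 0.01 and no variance trend.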

Additional observations from a re-analysis of the deposited data

Results flagged for a closer look

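In 14 of 100 sets of 10 libraries (25 named rows in 4 groups), the highest or lowest library stood apart from the other 9 by Dixon's criterion, where chance gives about 5%. Rows of genes with several rows gave 11 of the 14. Eif4a2 row NM_001123038 was low in saline sham replicate 8 (3170 normalised counts), memantine sham replicate 8 (825) and memantine HF-HI replicate 10 (1042), and row NM_013506 was high in memantine sham replicate 8 (9259) and memantine HF-HI replicate 10 (9524). Eif4g2 row NM_013507 was high in saline HF-HI replicate 7 (10027) and memantine HF-HI replicate 5 (9965). Eif4g3 row NM_001256195 was at 0 in saline HF-HI replicate 10, at 0 in memantine sham replicate 8 and at 488 in memantine HF-HI replicate 2, where row NM_172703 was high (1916). The rest were Eef1a1 in saline HF-HI replicate 1 (32772, next highest 30573), Eif2s3x in memantine sham replicate 4 (1614, next lowest 1750) and Eif4a1 in saline HF-HI replicate 3 (2980, next lowest 3665).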

How the results depend on the processing

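Of 129 counts of called members under alternatives, 107 stayed within 1.5 times the count as reported, and none of the 14 called changes reversed. The share of all transcripts or genes called was counted only for the fits as reported, so the counts under alternatives have no background. At p < 0.01 the members called were 2 over the 4 groups, 2 in saline, 1 under memantine and 0 for memantine in sham, and with rows summed 2, 1 and 0 in these 3 comparisons. With library weights they were 5 under memantine (7 with rows summed), 8 for memantine in sham (8 with rows summed) and 4 for the interaction, and voom weights gave 2 for the interaction. A mean count of at least 1000 gave 3 calls for memantine in sham (3 with rows summed). With the striatal marker mean as covariate 3 saline calls remained, Eif4b, Eif4e and Eif4g2, and 3 with rows summed. The 1 saline call at adjusted p < 0.1, Eif4b, became 0 with the mean count of at least 1000 (adjusted p = 0.101), quantile normalisation (0.116) and the covariate (0.236), and its adjusted p was 0.148 with both saline sham libraries that list Eif4e at 0 left out, an alternative added after seeing the data, as were the permutation tests of single rows. The cause of these shifts was not tested.

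Replicate numbers did not pair the libraries, with median correlations of same-numbered libraries from -0.026 to 0.001 and a best match with its own number in 1 of 10 libraries per comparison. With the replicate block 3 rows passed over the 4 groups, 5 in saline and 0 at adjusted p < 0.1 (0.10 for Eif4b), and Eif4g1 in saline was lost (p = 0.0637). The sign-flip test of pairs left 0 of 28 shares and 0 of 12 paralogue ratios. The depth gives a counting CV of at most 4.27%, so the spread between libraries sets the precision for most rows.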
